A study of Mus musculus with 10 samples.

Results

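Among the RNA regions crosslinked to tagged RBFOX2 in mouse embryonic stem (ES) cells, 2762 combined a coverage of at least 500 in the tagged library with an infinite fold over the untagged control library. The infinite fold is taken here to mean that no read of the control library fell in the cluster. The deposited list held 35639 clusters, and 16000 of them (44.9%) had an infinite fold. These 2762 clusters were 17.3% of those. They were 19.8% of the 13945 clusters with a coverage of at least 500, here called strong. The 95% exact binomial interval of 19.1 to 20.5% covers counting error only, since clusters of 1 library are not replicates. The 2762 clusters carried 1963 gene identifiers. The clusters were selected on their measured coverage and fold, and each iCLIP condition was 1 library. Coverage, fold, q-value and length are therefore given as a description with no test.

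All cells were V6.5 mouse ES cells. For iCLIP they carried a lentivirus from which doxycycline induced human RBFOX2, either with a FLAG-HA tag or untagged, and had been selected in hygromycin at 150 µg/ml for 6 days. Both cultures received doxycycline at 1 µg/ml for 24 h and ultraviolet light at 150 mJ/cm2, and RNA was recovered by FLAG and then HA immunoprecipitation. The protein was therefore human and expressed in addition to the cells' own mouse Rbfox2. Amplification took 16 cycles in both cases, and the untagged library was given 7 further cycles. The effect of the tag on which RNA was recovered and the effect of the added amplification cannot be told apart. For RNA-seq, ES cells carried a hairpin against luciferase (shLuc), GFP (shGFP) or Rbfox2 (shFox2-1 and shFox2-2). Puromycin at 1 µg/ml was given for 3 days and withdrawn for 24 h. Each hairpin had 2 poly(A)-selected libraries, which were pooled in the expression values, so that each condition had 2 values.

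RBFOX2 is a splicing regulator with an RNA recognition motif that binds the element GCAUG, most often in introns. Binding downstream of an alternative exon commonly favours its inclusion and binding upstream its skipping. iCLIP (individual-nucleotide resolution crosslinking and immunoprecipitation) fixes a protein to RNA in living cells and locates the contact from the reads recovered with the protein. An untagged control shows what the tag antibodies recover without the tag. RNA-seq of poly(A) RNA, by contrast, measures mostly spliced mRNA. Cluster sequences, the GCAUG element and the exon or intron status of clusters were not analysed here, because no mm9 genome was used.

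The ES cell identity in the labels was checked on marker genes in FPKM, fragments per kilobase of transcript relative to the sequenced total. Pou5f1 stood between 268 and 336 FPKM across the 4 hairpins, Sox2 between 76.0 and 104 in its main entry, Zfp42 between 110 and 189, Esrrb between 26.3 and 43.4 and Klf4 between 13.3 and 27.0. Nanog and Dppa5a were not analysed here. Of the 17 entries for fibroblast, neural, endoderm, mesoderm and trophoblast markers, the highest was Pax6 at 4.49 to 5.20 FPKM, and Postn, Afp and Elf5 were at 0 in at least 1 hairpin. Sequencing depth was unknown for both assays, since neither the FPKM values nor the cluster coverage came with library totals.

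The coverage of the 2762 clusters was low within the strong range. Its median was 716, its quartiles 587 and 996 and its maximum 8105. A coverage of 1000 or more was found for 685 (24.8%), of 2000 or more for 121, and of 4000 or more for 4. The 11183 clusters of coverage at least 500 with a finite fold had a median of 1355 and a maximum of 202869. The share of clusters without untagged reads was 38.4% of the 2006 clusters with a coverage of 500 to below 600 and 34.1% of the 2641 from 600 to below 800. It was 24.8% below 1000, 18.97% from there to 1500, 12.4% from 1500 to 2000 and 5.83% from 2000 to 4000. From a coverage of 4000 upwards, 4 of 2274 clusters, or 0.176%, lacked untagged reads. The q-value was listed as 0 for 587 of the 2762, and the largest was 3.0549e-151. At the coverage threshold, 30 clusters had exactly 500 and 8 had 501, and just outside it 11 had 499 and 15 had 498. Those at 500 included clusters in Acer3 (116 bases), Ank2 (95 bases) and Apopt1 (117 bases), and those at 499 included clusters in 4930519F16Rik (114 bases), Arl15 (104 bases) and Cbx1 (73 bases).

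**Figure D1:**
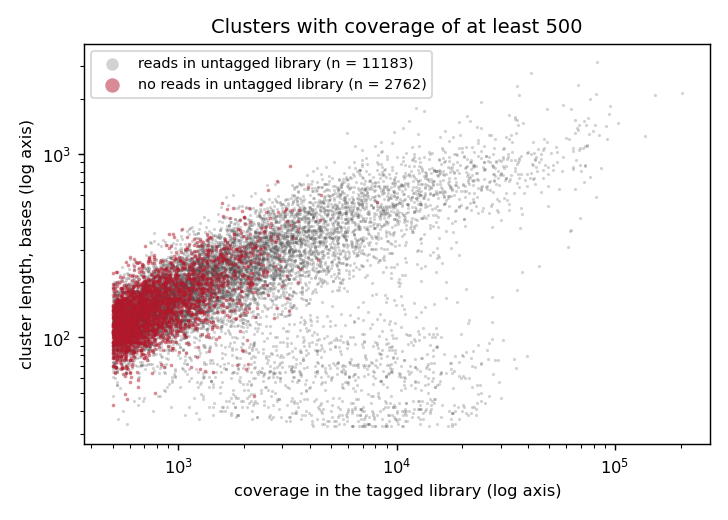
Each point is 1 cluster with a coverage of at least 500 in the tagged library, with coverage on the horizontal and length in bases on the vertical axis, both logarithmic. The 2762 clusters without untagged reads (red) lie at the low end of coverage, with a median of 716, and reach 8105, while the 11183 with untagged reads (grey) reach 202869.

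The clusters were 43 to 857 bases long, with a median of 140 and quartiles of 114 and 181. Only 115 of them (4.16%) reached 300 bases and 344 (12.5%) were shorter than 100. The finite-fold clusters of the same minimum coverage were longer, with a median of 179 bases, an upper quartile of 283 and a maximum of 3155. The gap was small at matched coverage. Between 500 and 1000 the medians were 130 bases without untagged reads and 135 with them. Infinite-fold clusters with a coverage below 500 had a median of 71 bases. Across the 2762 clusters the Spearman correlation of coverage with length was 0.575, a description over clusters that share 1 library. The plot of length against coverage shows a band of short finite-fold clusters with high coverage. At a coverage of 1000 or more, 861 of 6974 finite-fold clusters and 19 of the 685 without untagged reads were shorter than 100 bases. One of these 19 was a cluster of 48 bases and coverage 2222 in Blvra, which encodes biliverdin reductase A. It overlapped 2 other clusters, and Blvra held 15 finite-fold clusters of coverage at least 500.

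The cluster with the highest coverage, 8105, lay in Bpnt1, which encodes a nucleotidase of sulphur metabolism (mm9 chromosome 1, 187157797 to 187158341). It was 545 bases long and stood 1977 bases from the 5′ end of the locus. The next was a cluster of coverage 4501 and 594 bases on chromosome 17 (69783321 to 69783914), assigned to ENSMUSG00000085144, an identifier with no matched symbol. Adora1, which encodes an adenosine receptor, held a cluster of coverage 4475 and 436 bases (chromosome 1, 136117403 to 136117838), and it was the gene's only cluster in the list. Adam15, a membrane metalloprotease gene, held one of coverage 4386 and 263 bases (chromosome 3, 89144822 to 89145084). These 4 were the ones at 4000 or more.

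The rest of the 15 highest had coverages from 3206 to 3925. They lay in Rabepk (a Rab effector of endosome transport), Abi1 (a subunit of the actin-regulating WAVE complex), Tbc1d9b and Tbc1d16 (Rab GTPase-activating protein family), Adcy3 (an adenylyl cyclase) and Mettl15 (a methyltransferase). The others were Prune2, Wdr25, Tns1 (tensin, a focal adhesion protein), Abcc6 (an ATP-dependent transporter) and Trappc9 (a subunit of a vesicle-tethering complex). The cluster in Rabepk spanned 660 bases and that in Trappc9 139 bases, at coverages of 3925 and 3206. Abcc6 held the longest of all, 857 bases, with a coverage of 3250 (chromosome 7, 53261464 to 53262320). Tmcc3 held the other of the 3 longest, 709 bases. That cluster and the one of coverage 3371 in Prune2 lay outside the locus that the expression table gives their gene. The 3 shortest were in Fn1 (fibronectin, 43 bases), Enah (an actin regulator, 46 bases) and Blvra.

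The mRNA levels of these hosts ranged from 0 to moderate. Bpnt1 stood at 30.4 FPKM in shLuc, 35.2 in shGFP, 41.1 in shFox2-1 and 38.9 in shFox2-2. It had the highest control mean among those of the 15 with a usable value. Adora1 stood at 0.142, 0.150, 0.295 and 0.302 FPKM in the same order, and Abcc6 was listed at 0 in every hairpin. Adam15 stood at 8.01, 7.18, 7.90 and 7.00 FPKM, and Rabepk at 4.43, 5.11, 5.53 and 3.95. The Abi1 entry had a failed status in shFox2-2 and was not tested. Across the 2580 clusters with a host entry, the Spearman correlation of coverage with the host's control FPKM was -0.0497.

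A gene identifier held 1 of the strong clusters without untagged reads in 1443 cases (73.5%), 2 in 341 and 3 or more in 179. Smyd3, which encodes a lysine methyltransferase, held the most, with 12. Their coverages ran from 525 to 2588 and their positions from 4.88% to 62.8% of a locus of 563 kb. Smyd3 also held 87 finite-fold clusters of coverage at least 500. Wwox, a WW domain oxidoreductase gene, held 9 over a locus of 913 kb, with coverages of 527 to 1263, beside 26 such finite-fold clusters.

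Of the genes described here, 5 held 6 clusters each. They were Vps8 (endosomal tethering), Lrrc8d (a volume-regulated anion channel subunit), Pak1 (a kinase of cytoskeletal signalling), Msi2 (the RNA-binding protein Musashi 2) and Gli2 (a transcription factor of Hedgehog signalling). In Vps8, 5 of the 6 stood within 1436 bases of one another (chromosome 16, 21551353 to 21552788), with coverages of 1021 to 1900. In Pak1, 5 stood within 1443 bases (chromosome 7, 104944243 to 104945685), outside the locus that the expression table gives the gene. In Lrrc8d, 3 stood within 787 bases. In Gli2 and Wwox, by contrast, they were spread over the locus, from 6.69% to 87.5% and from 11.8% to 75.3% of its length. Golga4, a golgin gene, and Lrrfip2 held 5 each. Of all 2762 clusters, 298 (10.8%) lay within 1 kb of another of them, and 213 (7.71%) overlapped some other cluster of the list on the same strand. Such overlap was found for 7.83% of all clusters and 17.5% of finite-fold strong clusters. At coverages of 500 to below 1000, 9.15% of these clusters and 6.32% of finite-fold ones lay within 1 kb of one of the 2762. For any cluster within 1 kb, the shares were 48.8% and 53.2%.

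Genes with more of these clusters had longer loci, while their mRNA levels were alike. The median locus length was 52184 bases for 1337 hosts with 1 cluster, 95186 for 319 hosts with 2 and 147657 for 169 hosts with 3 or more. Their median control FPKM was 8.41, 8.55 and 8.99. Over hosts, the Spearman correlation of the number of clusters with locus length was 0.342 (n = 1825).

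Most hosts also held clusters that did have untagged reads. Of the 1963 gene identifiers, 1361 (69.3%) also held a finite-fold cluster of coverage at least 500. Over the whole list, 4164 of 7740 gene identifiers held one. Some finite-fold cluster was listed for 1609 (82.0%) of the 1963. No finite-fold cluster was listed for 354 (18.0%), and no other cluster of any kind for 154 (7.85%). Where a gene held many strong clusters, fewer of them lacked untagged reads. The share was 25.9% in genes with 1 cluster of coverage at least 500, 21.8% with 2 to 4, 20.7% with 5 to 9, 16.2% with 10 to 19 and 6.18% of 1521 clusters in genes with 20 or more. Within coverages of 500 to below 1000 the corresponding shares ran from 37.1% down to 19.8%. At the far end, Dgcr8, a subunit of the microRNA-processing complex, held 84 finite-fold strong clusters and 1 without untagged reads (coverage 1438). Rbpj, through which Notch signalling acts on transcription, held 76 and 2, and Enah 58 and 2. The share without untagged reads was higher in some other genes with 20 or more strong clusters. Smyd3 held 87 and 12, Wwox 26 and 9, Gli2 23 and 6, and Rbfox2 16 and 4.

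A host entry of the expression table was matched for 2580 clusters (1825 gene identifiers, 1823 distinct entries), and the summit lay inside its locus for 2418 (93.7%). Position was measured from the 5′ end of the locus by strand. The clusters were spread evenly, with 8.93% to 11.3% in each of 10 equal bins of the locus and a median position of 48.8% (quartiles 25.3 and 75.2%). The finite-fold clusters of coverage at least 500 were not even at the 3′ end. The last bin held 1784 of 9798 (18.2%), against 252 of 2418 (10.4%) of those without untagged reads. For infinite-fold clusters with a coverage below 500 the last bin held 10.4% as well. Among clusters of coverage at least 500, the share without untagged reads lay between 19.7% and 23.6% in the first 9 bins and at 12.4% in the last (95% interval 11.0 to 13.9%).

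**Figure D2:**
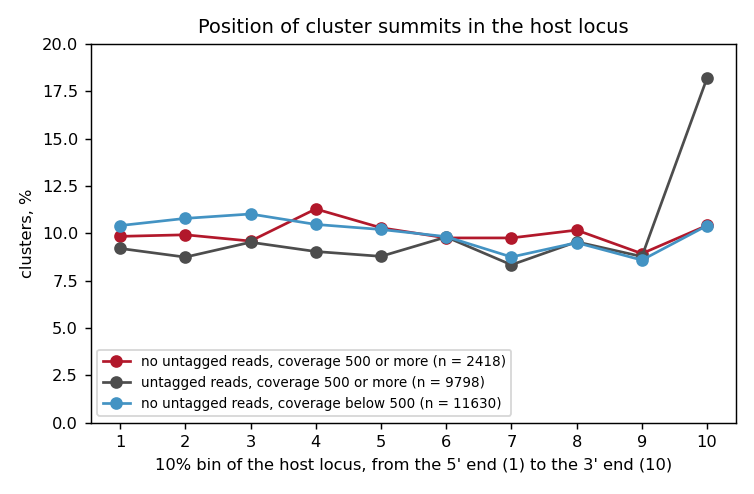
The share of clusters (percent) whose summit fell in each 10% bin of the host locus, from the 5′ end (1) to the 3′ end (10), for 3 groups of clusters. Strong clusters without untagged reads (red) stayed between 8.93% and 11.3%, as low-coverage clusters without untagged reads (blue) also lay near 10%, and only strong clusters with untagged reads (dark grey) reached 18.2% in the last bin.

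Closer to the 3′ end the contrast was larger. The last 1 kb of the locus held 70 of the 2418 clusters (2.89%) and 910 of the 9798 finite-fold clusters (9.29%). At a matched coverage of 500 to below 1000 the shares were 3.24% (interval 2.47 to 4.16%) and 9.65% (8.72 to 10.6%). In host loci under 30 kb they were 7.45% and 21.6%, between 30 and 100 kb 2.58% and 8.15%, and in loci of 100 kb or more 0.995% and 2.35%. The first 2 kb held 3.60% and 3.30%. Below a coverage of 500, the last 1 kb held 3.65% of infinite-fold and 8.62% of finite-fold clusters, so the contrast was not particular to strong clusters. The intervals cover counting error only, clusters of 1 gene share its RNA, and no test was made because infinite fold is part of the rule. Of the clusters, 461 (17.9%) lay in a locus that several table entries share, and the median position over the other loci was 49.6%. The strand of the cluster was that of the gene in RefSeq in 2137 of 2146 clusters checked (99.6%).

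The host loci were long. Their median length was 65195 bases, against 43777.5 for genes with a finite-fold cluster of coverage at least 500. These sets overlap, since 1361 of the 1963 gene identifiers also held such a cluster. The share of strong clusters without untagged reads was 14.2% in loci under 10 kb and 24.1% in loci of 300 kb or more. The summits stood at a median of 32560 bases from the 5′ end and 31552 bases from the 3′ end.

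The level of the host mRNA was examined next, since the RNA-seq did not choose the clusters. The median of the 1823 host entries was 8.38 FPKM in shLuc, 8.77 in shGFP, 9.21 in shFox2-1 and 7.84 in shFox2-2. Of these entries, 1651 had a mean of at least 1 FPKM and are called expressed. A control mean of 10 or more was found for 819 and of 100 or more for 38. The 2573 entries with a finite-fold cluster of coverage at least 500 and none of the 2762 stood higher, at 11.8, 12.3, 13.6 and 10.8 FPKM in the same order. The median host level in the control hairpins was 8.48 FPKM for the 2762 clusters and 8.29 for infinite-fold clusters with a coverage below 500. For finite-fold clusters it was 11.3 at a coverage of at least 500 and 11.0 below 500, where these host sets share genes. The lower host level was therefore not particular to strong clusters. The share of strong clusters without untagged reads went down as the host's mRNA level went up. It was 31.0% of 610 clusters in hosts below 1 FPKM in the control hairpins, 27.6% from 1 to 3, 21.3% from 3 to 10, 18.5% from 10 to 30, 13.7% from 30 to 100 and 11.0% of 462 clusters at 100 FPKM or more.

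**Figure D3:**
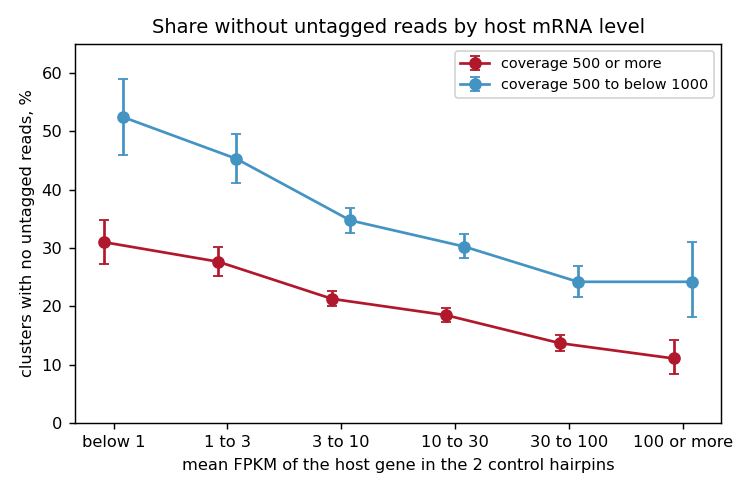
The percent of clusters with no untagged reads, by the host gene's mean FPKM in the control hairpins, with 95% exact binomial intervals as bars, for all clusters of coverage at least 500 (red) and for those of coverage 500 to below 1000 (blue). The red line goes down from 31.0% to 11.0%, and the blue line from 52.5% to 24.2% at 30 to 100 FPKM, with the last bin also at 24.2%.

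At matched coverage the share also went down up to 30 to 100 FPKM. Between 500 and 1000 the share was 52.5% (127 of 242 clusters, interval 46.0 to 58.9%) in hosts below 1 FPKM, 45.3% from 1 to 3, 34.7% from 3 to 10 and 30.2% from 10 to 30. The upper bins, from 30 to 100 FPKM and from 100 upwards, were alike at 24.2% each, with intervals of 21.7 to 26.9% and 18.2 to 31.0%. The part of overall RNA abundance in the number of untagged reads was not tested.

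At the low end, 145 host entries (7.95%) had a mean below 1 FPKM, near the 8.22% among hosts of all clusters. It was 8.14% among hosts of infinite-fold clusters below a coverage of 500 and 5.74% among hosts of finite-fold strong clusters. Listed at 0 in every hairpin were 5 entries with 7 clusters. They were Abcc6, Npsr1 (a neuropeptide receptor) and Ryr2 (a calcium release channel of muscle), and also Map7 and Best3, which are named here after their values were seen. The cluster in Npsr1 was 503 bases long with a coverage of 1675, and it was the gene's only one. In Ryr2 the coverage was 1491. Cadm2, a cell adhesion gene, and Ifitm10 were at 0 in both control hairpins and held clusters of coverage 1383 and 2125. At the high end stood Rpl8 (a ribosomal protein), Eno1 (the glycolytic enzyme enolase), Eef2 (a translation elongation factor), Tdgf1 (a Nodal co-receptor of ES cells) and Hmgn1 (a nucleosome-binding protein). Rpl8 stood at 579, 691, 587 and 546 FPKM in shLuc, shGFP, shFox2-1 and shFox2-2, and its cluster had a coverage of 550. Eef2 stood at 306, 355, 302 and 301 FPKM, and its cluster (coverage 687) was its only one in the list. The clusters of the 5 most abundant hosts had coverages of 550 to 850.

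Rbfox2 itself was among the hosts, and its level checks the hairpin labels. It stood at 24.7 FPKM in shLuc (deposited interval 21.9 to 27.4), 23.3 in shGFP (20.6 to 26.0), 8.56 in shFox2-1 (7.14 to 9.98) and 7.21 in shFox2-2 (5.59 to 8.82). Both knockdown hairpins lay below both controls with no overlap of intervals. Rbfox2 held 51 clusters, 4 of them strong and without untagged reads. Their coverages were 906, 793, 694 and 622, at 49.3%, 4.66%, 95.7% and 23.1% of the locus (listed as Rbm9, chromosome 15). Another 16 clusters had a coverage of at least 500 and a finite fold. Since human RBFOX2 was expressed in the iCLIP cells, reads from the introduced RNA that match the mouse sequence cannot be told apart from those of the mouse gene.

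The knockdown comparison asks whether mRNA levels of the hosts moved when Rbfox2 was reduced. As a group they differed little. In bulk RNA, fewer cells of a type and less RNA per cell cannot be told apart. Over the 1789 host entries tested, the median log2 fold change, knockdown against control on log2(FPKM + 1), was 0.02, with quartiles of -0.09 and 0.12. Of these, 964 were higher and 825 lower in the knockdown (53.9% higher), against 10009 higher and 10272 lower of all 20281 entries tested (49.4% higher, median -0.00). The median of expressed hosts against the mean of the controls was 0.13 in shFox2-1 and -0.09 in shFox2-2, and over all expressed genes it was 0.07 and -0.09. With hairpins centred on the median expressed gene, the host medians were 0.05 in shFox2-1 and 0.02 in shFox2-2. Those of all expressed genes were then -0.01 and 0.02, so the hosts stood above them in shFox2-1 only. In shFox2-1 the centred median was 0.03 in both groups of genes with other clusters and -0.05 with no cluster. The host median over all hosts tested was -0.08 without shFox2-1, 0.12 without shFox2-2, -0.01 without shLuc and 0.04 without shGFP, so its sign changed with the hairpins that entered.

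By limma, no host passed an adjusted p of 0.05, as none did over all genes (percent called 0%). An unadjusted limma p under 0.05 was found for 50 hosts (2.79%), 31 higher and 19 lower, while 4.48% of all entries tested met it, 2.3% higher and 2.17% lower. This count moved with the setting. With hairpins centred on the median expressed gene it was 109 of 1789 hosts and 1040 of 20281 entries. It was 8 hosts without shLuc, 16 without shGFP, 182 without shFox2-1 and 301 without shFox2-2, so the hosts' share is not read against that of all entries. Both knockdown values lay above both control values for 306 of 1651 expressed hosts (18.5%), where 14.3% of all expressed genes did so. Both lay below for 220 (13.3%), where 17.8% of all expressed genes did so. The knockdown and control hairpins were 2 each, and duplicate libraries were pooled, so the p-values reflect how hairpins of 1 kind differed and not how cultures did.

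**Figure D4:**
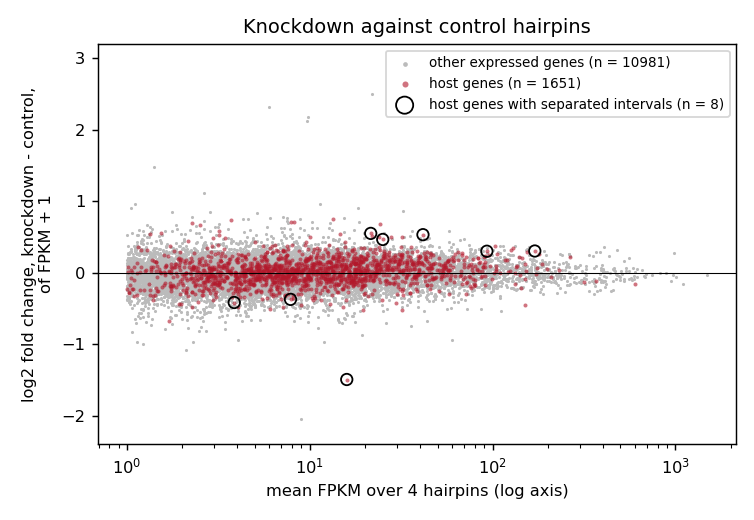
Log2 fold change of FPKM + 1, knockdown against control, against the mean FPKM over the 4 hairpins (log axis) for expressed genes. The 1651 hosts (red) lie within the spread of the other 10981 genes (grey), and the circled points are the 8 hosts whose intervals were separated, with Rbfox2 the lowest at -1.50.

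A stricter description uses the deposited intervals. A gene is called separated when the FPKM intervals of both knockdown hairpins lie above, or both below, those of both controls. This held for 8 of 1651 expressed hosts (0.485%), 5 higher and 3 lower, where 0.293% of all expressed genes met it (0.174% higher and 0.119% lower). Among genes with a finite-fold cluster of coverage at least 500 and none of the 2762 it was 0.749%. With hairpins centred on the median expressed gene, 12 hosts were separated, 10 higher and 2 lower (0.727%, against 0.309% of all expressed genes), and Tenm3, Uba2 and Ssr3 were no longer among them.

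Of the 5 that were higher, Wdr35 encodes a component of intraflagellar transport. It stood at 16.6 FPKM in shLuc, 18.0 in shGFP, 27.6 in shFox2-1 and 24.0 in shFox2-2, 0.55 higher on the log2 scale (SE 0.13). Its 2 clusters, of coverage 823 and 712, stood at 5.31% and 47.1% of the locus, and the gene held no finite-fold cluster of coverage at least 500. Limk2, a kinase that phosphorylates cofilin, stood at 21.7, 20.1, 31.3 and 27.2 FPKM in the same order, a log2 fold change of 0.46 (SE 0.13). It too held no finite-fold strong cluster, and its 2 clusters had coverages of 1676 and 1643, with lengths of 252 and 334 bases.

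Rbpj had control levels of 33.6 and 33.5 FPKM and knockdown levels of 58.4 (shFox2-1) and 40.95 (shFox2-2), which differ by 0.53 on the log2 scale (SE 0.18). The 2 knockdown hairpins were themselves far apart. Uba2, the catalytic subunit of the SUMO-activating enzyme, had 146 and 158 FPKM with control and 189 and 187 with knockdown hairpins (log2 fold change 0.30, SE 0.10). Ssr3, a subunit of the translocon-associated protein complex, had 84.8 and 81.8 FPKM against 102 and 103 (0.30, SE 0.10). Their clusters had coverages of 767 and 728.

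The 3 that were lower were Rbfox2, Tenm3 and Map1b. Rbfox2 had a log2 fold change of -1.50 (SE 0.14) and a limma adjusted p of 0.913 over all 20281 entries. Tenm3, which encodes a teneurin cell-surface protein, had 4.73 and 4.40 FPKM with control hairpins and 3.16 with each knockdown hairpin (-0.42, SE 0.15). Its cluster had a coverage of 553. Map1b, a microtubule-associated protein gene, stood at 8.87 and 9.11 FPKM against 7.02 and 6.40 (-0.37, SE 0.14). Its cluster (coverage 929) lay outside the gene's locus in the table. The limma adjusted p was 0.978 for each of the 7 hosts other than Rbfox2. Rbfox2, Wdr35, Limk2, Rbpj and Ssr3 carried a low-data status in at least 1 hairpin, and with those entries left out 3 hosts were separated.

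**Figure D5:**
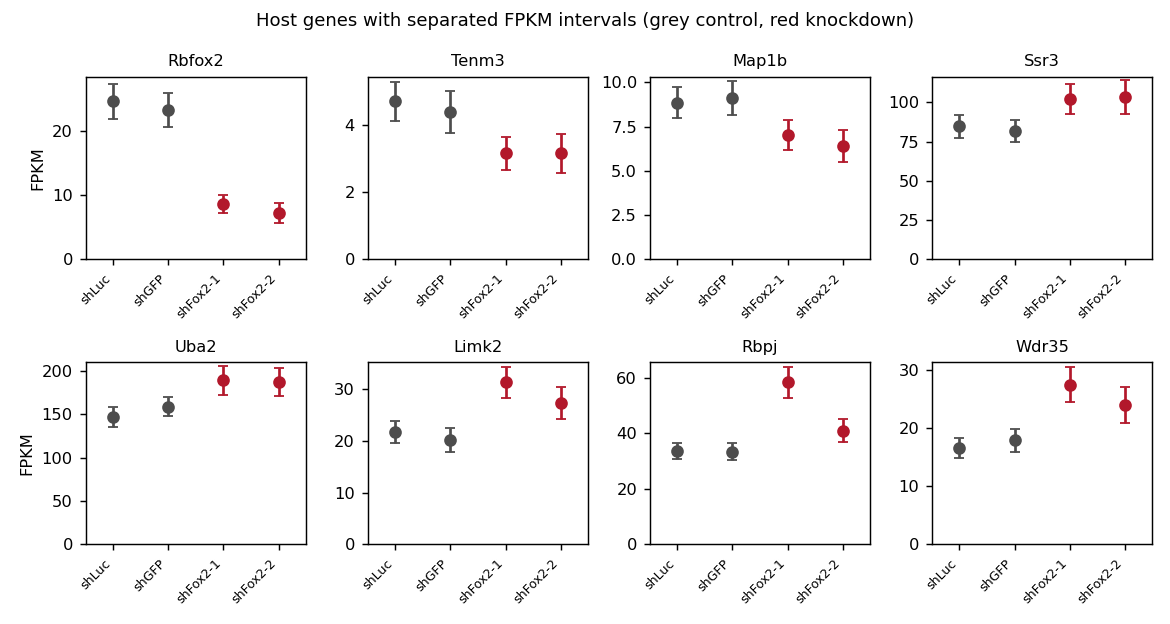
FPKM (linear axes from 0) of the 8 separated hosts in the control hairpins shLuc and shGFP (grey) and the knockdown hairpins shFox2-1 and shFox2-2 (red), with the deposited intervals as bars and the 2 libraries of each hairpin pooled. In each panel the red intervals do not overlap the grey ones, and in Rbpj shFox2-1 at 58.4 lies well above shFox2-2 at 40.95.

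The largest differences among expressed hosts with a mean of at least 5 FPKM were mostly carried by shFox2-1. Sfmbt2, a Polycomb-associated gene, had 9.90 FPKM in shLuc, 8.88 in shGFP, 23.4 in shFox2-1 and 11.5 in shFox2-2, with a log2 fold change of 0.75. Pdgfc, a growth factor gene, stood at 6.00, 5.36, 12.6 and 7.82 FPKM in the same order, and Manba, a lysosomal mannosidase gene, at 17.6, 18.3, 40.2 and 21.3. In these 3, both knockdown values lay above both controls, and shFox2-1 was the higher of them. Lrrc28 was nearer to an even difference, at 4.96, 7.05, 11.8 and 9.06 FPKM.

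Among the lowest fold changes after Rbfox2, Mthfd1l, a mitochondrial folate enzyme gene with 4 clusters, stood at 21.6, 24.7, 12.4 and 19.9 FPKM. Meg3, an imprinted long noncoding RNA, stood at 42.9, 33.1, 24.5 and 27.4 FPKM, so that both knockdown values lay below both controls. Prom1, the gene of the surface protein CD133, stood at 7.47, 6.42, 2.49 and 7.95, low in shFox2-1 alone. Fads2, a fatty acid desaturase gene, stood at 17.5, 18.0, 10.6 and 14.6. Of these 8 genes none was separated.

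The clusters were then read by gene function. Among 362 strong clusters in 57 cytoskeleton and adhesion genes, 60 (16.6%) lacked untagged reads, in 37 genes. They included Sptbn1 (a spectrin, coverage 2079), Epb41l5 (2005), Limk2 and Map4 (a microtubule-associated protein, 1648). Of 323 clusters in signalling kinase, phosphatase and small GTPase regulator genes it was 46 (14.2%), in 29 genes, with Ppp1r12a (a myosin phosphatase subunit) at 2894, Tsc2 (an inhibitor of mTOR signalling) at 2380 and Prkca (a protein kinase C) at 2245. Chromatin and DNA methylation genes held 43 of 242 (17.8%), in 26 genes. Among them were Chd6 (a chromatin remodeller, 2131), Kdm2a (a histone demethylase, 1148), Suz12 (a Polycomb subunit, 1080) and Hdac4 (a histone deacetylase, 1025). These shares stand beside 19.8% over all strong clusters.

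Genes of RNA-binding proteins are the class the series is about. Rbfox2 held 4 of the 20 strong clusters of the Rbfox family (20%). A list of mRNA decay, transport and translation genes held 20 of 275 strong clusters (7.27%, interval 4.50 to 11.0%), in 11 genes. The list also took in Dgcr8 of microRNA processing, which alone held 84 of its finite-fold strong clusters and 1 of the 20. Other genes of the list were the nonsense-mediated decay endonuclease Smg6 with 4 clusters of up to 1147, the stress granule protein gene G3bp1 at 1145 and Msi2. Splicing regulators outside the SR and hnRNP families held 26 of 232 (11.2%, interval 7.45 to 16.0%), among them Mbnl3 at 2352, Ewsr1 at 1861, Pspc1 (a paraspeckle protein) at 1493 and Rbm39 at 1276. The hnRNP genes held 8 of 64 (12.5%, interval 5.55 to 23.2%), in 7 genes, among them Hnrnph2 (1324), Hnrnpd (1318), Hnrnpc (1117) and Raly (917). SR protein genes held 3 of 33 (9.09%, interval 1.92 to 24.3%), in Srsf5 (1505), Srsf3 (785) and Srsf11 (685). The cluster in Srsf5 was its only one in the list. Those in Hnrnpc and Srsf11 lay outside their gene's locus in the table. Over all strong clusters the share was 19.8%, with 13.7% in hosts of 30 to 100 FPKM and 11.0% at 100 FPKM or more. The list shares, and the part of host mRNA level in them, were not tested. Clusters also concentrate in single genes, as the 84 finite-fold clusters of Dgcr8 show.

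Pluripotency genes held 9 of 72 (12.5%), in 8 genes. Esrrb, an orphan nuclear receptor of the ES cell network, held clusters of 1611 and 1116 at 96.7% and 80.1% of its locus. Lifr, the receptor through which LIF sustains mouse ES cells, held one of 1087, and Prdm14 one of 931. A cluster of 994 in Rex2 is uncertain, because its locus is shared by 7 entries. Cytosolic ribosomal protein genes held 5 of 26, including Rpl35a (829) and Rpl21 (703). The snoRNA host and long noncoding RNA list held 3 of 78 (3.85%), in Meg3 and Firre. The cluster in Firre lay outside the gene's locus in the table.

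In the knockdown, the 37 cytoskeleton and adhesion hosts had a median log2 fold change of 0.00, 18 higher and 18 lower among those tested, with Limk2 and Map1b separated. The signalling hosts had 15 higher and 11 lower (median 0.01), with 1 separated. That host is among the 8 separated hosts described above and is no further case, since lists may share a gene. The chromatin hosts had 17 higher and 9 lower (0.03), and the splicing regulators outside the SR and hnRNP families 13 and 8 (0.06). The decay, transport and translation hosts had 8 and 3 (0.05), the hnRNP hosts 3 and 4 (-0.00) and the SR hosts 2 and 1 (0.04). In none of these last 5 lists was a host separated, where 0.293% of all expressed genes were. An unadjusted limma p under 0.05 was found for 1 splicing regulator. No host of these lists was under an adjusted limma p of 0.05. None of all 20281 entries was either, so the adjusted p cannot tell whether these lists changed. The pluripotency hosts had 7 higher and 1 lower, with a median of 0.17. Esrrb stood at 30.8, 34.2, 43.4 and 26.3 FPKM in shLuc, shGFP, shFox2-1 and shFox2-2, and Lifr at 3.82, 4.20, 6.21 and 2.91. In both, shFox2-1 was the highest and shFox2-2 the lowest value, and no pluripotency host was separated. The 4 ribosomal protein hosts tested had 2 higher and 2 lower (-0.02), and both long noncoding hosts, Meg3 and Firre, had lower means (median -0.40) without being separated. The lists were read with earlier results of these data known.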

How the data were processed

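RNA-seq (8 libraries, 4 hairpins) and iCLIP (1 tagged and 1 untagged library) of V6.5 mouse ES cells were used. The authors deposited FPKM with interval bounds and a status for each of 4 hairpins, with the 2 libraries of a hairpin pooled, per the file headers. TopHat2 2.0, Cufflinks 2.1.1 and mm9 are named in the submitters' processing notes. The authors deposited clusters of the tagged library with mm9 position, gene identifier, coverage, fold over the untagged library and q-value, per the file headers. For the iCLIP aligner, the cluster caller and the scaling of fold, names and settings are not given in the sources used here. Depth was unknown, and binomial intervals (95%) cover counting error only.

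Clusters with infinite fold and a coverage of at least 500 were selected. Hosts were matched by symbol (1458 identifiers) or older RefSeq symbol (367), with 182 clusters (138 identifiers) left without a host entry. Of 26857 entries, 105 failed and were left out with those at 0 throughout, and 20281 were tested with limma 3.58.1 (R 4.3.3, mean-variance trend, Benjamini-Hochberg) on log2(FPKM + 1), 2 knockdown against 2 control hairpins. This scale understates the change of low genes. The script was tested on simulated data. Low-data entries were kept.

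The text names the hosts of the 15 clusters of highest coverage, the 10 hosts with most clusters, hosts of the 3 longest and 3 shortest, separated hosts, the 5 largest rises and falls, the 5 highest and 5 lowest hosts by control FPKM, and up to 4 hosts of each of 11 gene lists. Some hosts that the rule names are not reported here. The clusters, lists and rules were chosen with earlier results of these data known. Alternatives covered the coverage minimum, host assignment, pseudocount, filters, centring and left-out hairpins.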

Additional observations from a re-analysis of the deposited data

How the results depend on the processing

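With a coverage minimum of 300 there were 6438 clusters without untagged reads (median length 108 bases), and with 1000 there were 685 (median length 199 bases, median position 52.1% of the locus, median host control FPKM 7.76 against 8.48). For coverages of 500 to below 1000, an alternative chosen after seeing the data, the median length was 130 bases. With overlapping clusters merged, the count was 2732. The number of separated hosts was 3 (Map1b, Tenm3 and Uba2) when a status of OK was required in every hairpin. With only genes of a mean FPKM of at least 1 in the limma fit, 1 host (Rbfox2) passed an adjusted p of 0.05. With hairpins centred, a setting added to the limma fit after seeing the data, Rbfox2 also passed, as 1 of 2 genes overall. Leaving out 1 hairpin at a time gave host medians of -0.08 to 0.12 in log2 fold change, with -0.04 to 0.03 over all genes, and 0 hosts past the adjusted limma p in each case. No paired analysis was possible because the deposited values pool the libraries of each hairpin. The shares of clusters holding GCATG or TGCATG were not run, since no mm9 genome was used.

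The iCLIP comparison rests on 1 tagged and 1 untagged library of unknown depth. The share of strong clusters without untagged reads fell with coverage, and how many of them a deeper control library would cover was not tested. Clusters of 1 gene share its RNA and are not replicates. FPKM pools duplicates, so no spread between cultures was measured.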
